A study of Mus musculus with 4 samples.

Results

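The non-collagen proteins of the cartilage matrix were followed here through 10 genes in the limbs of E14.5 embryos of CD1 mice. The genes were Acan, Hapln1, Matn1, Matn3, Matn4, Comp, Cnmd, Snorc, Ucma and Chad, out of 26252 genes and clusters in the deposited tag table. They were chosen by name as matrix genes other than collagens, and the counts of all tags carrying a gene's Ensembl identifier were summed. All 10 had at least 1 count, and 8 passed the filter on low counts and were tested, all but Snorc and Ucma. The libraries came from whole dissected hindlimbs and whole dissected forelimbs, with 2 biological replicates of each limb type. All embryos were of the same strain and stage, and no genotype or treatment is given. Whether a replicate held the limbs of a single embryo or of several is not given in the sources used here.

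Limb bones of the embryo are first laid down as cartilage. Chondrocytes fill the space around them with aggrecan, a proteoglycan that carries many sulfated sugar chains and holds water, and aggrecan is tied to hyaluronan by link protein. Matrilins and cartilage oligomeric matrix protein act as adaptors between proteoglycans and collagen fibrils, while chondromodulin and chondroadherin act on or bind cells. The assay, tag profiling by serial analysis of gene expression, cuts cDNA at CATG with the enzyme NlaIII and reads the bases next to a cut, ideally the cut closest to the poly(A) end. In the ideal case each transcript gives a single tag, so that levels in CPM, counts scaled by library size, need no correction for length. Here the tested genes were counted through several tags each, Hapln1 for example through 16. Levels set beside each other between genes may therefore also depend on the number of sites and on the tags' sequences.

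Library totals ran from 1829647 to 5325279 counts, the smallest being forelimb replicate 2. A single count was worth 0.621 CPM in that library and 0.224 to 0.256 CPM in the other 3. The tags differed in base composition between the limb types: G and C made up 46.3% and 50.4% of the counted bases in hindlimb replicates 1 and 2, against 40.6% and 40.2% in forelimb replicates 1 and 2. For the tags of the 10 genes alone the values were 45.8% and 48.9% in hindlimb and 41.8% and 41.7% in forelimb. Base composition and limb type cannot be told apart by the design, so the main results are also given with a tag-sequence offset, a correction per library learned only from differences between tags of the same gene. The labels held against limb markers. Pitx1, the hindlimb homeobox gene, had 254 and 305 CPM in hindlimb, against 3.33 and 1.24 CPM in forelimb. Tbx5, the forelimb T-box gene, had 0.894 and 1.52 CPM in hindlimb, against 18.4 and 14.9 CPM in forelimb. Both passed with the offset as well. The offset moved the log2 fold change of Pitx1, hindlimb over forelimb, from 6.72 to 3.86 and that of Tbx5 from −3.77 to −3.89. How much of a limb difference the offset takes away was not tested.

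Cnmd and Chad were higher in hindlimb and Matn1 was higher in forelimb, by 2.27-, 2.65- and 2.40-fold, while Acan, Hapln1, Matn3, Matn4 and Comp did not pass the test (edgeR's quasi-likelihood test with Benjamini-Hochberg adjustment over 13718 genes, threshold 0.05). That made 3 of 8 tested genes called, where 16.7% of all tested genes were called. Of the 3, 2 were higher in hindlimb, the direction of 9.58% of all tested genes, and 1 was higher in forelimb, the direction of 7.08%. The median log2 fold change, hindlimb over forelimb, was −0.09 for the 8 genes and −0.03 for all tested genes. In 7 of the 8 the limb types did not overlap in CPM, as they did not in 62.8% of all tested genes. With the tag-sequence offset edgeR called 0 of the 8 genes, where 0.197% of all tested genes were called. At an unadjusted p under 0.05 with that offset stood 2 of the 8 (Acan and Comp), beside 1242 of all 13718 tested genes. The base composition of the tags moved with these results, as given above. In whole limbs, fewer cartilage cells and less RNA per cell cannot be told apart.

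**Figure D1:**
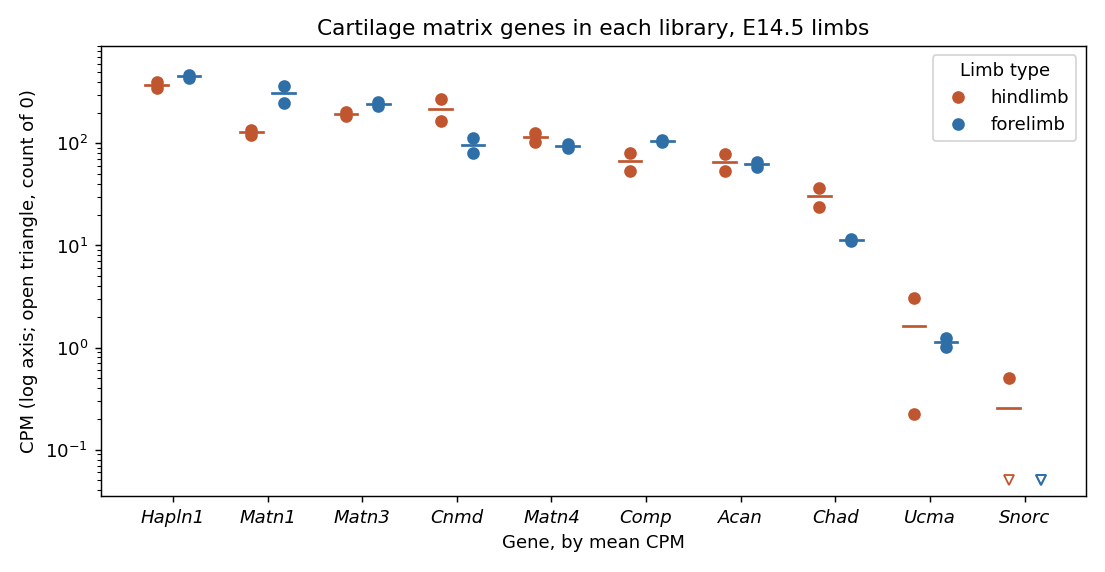
CPM of each of the 10 genes on a log axis, hindlimb libraries in orange and forelimb libraries in blue, with a line at the mean of the 2 libraries and an open triangle for a count of 0. Hapln1 was the most abundant in both limb types, at 350 to 401 CPM in hindlimb and 440 to 468 CPM in forelimb, and Ucma and Snorc lay near or at 0.

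The proteoglycan aggregate was represented by its core protein and its link protein. Acan encodes aggrecan (ENSMUSG00000030607, chromosome 7, 79053483 to 79115099, plus strand, GRCm38). It had 78.2 and 53.5 CPM in hindlimb replicates 1 and 2, against 59.2 and 65.2 CPM in forelimb replicates 1 and 2. Hindlimb replicate 1 was the highest and hindlimb replicate 2 the lowest, so the limb types overlapped, and Acan was the only tested member in which they did. Its log2 fold change was 0.09 ± 0.34 (SE), with a 95% interval from −0.63 to 0.81 and an adjusted p of 0.890 by edgeR. The value was −0.62 with the tag-sequence offset (adjusted p = 0.548).

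Hapln1 encodes the link protein that locks aggrecan onto hyaluronan (ENSMUSG00000021613, chromosome 13, 89539796 to 89611652, plus strand). It had 401 and 350 CPM in hindlimb, against 440 and 468 CPM in forelimb. Both hindlimb libraries lay below both forelimb libraries, by little. The log2 fold change was −0.27 ± 0.30 (SE), with an interval from −0.91 to 0.36 and an edgeR adjusted p of 0.574. With the offset the interval ran from −0.43 to 0.43. Counts of Hapln1 over counts of Acan came to 5.13 and 6.55 in hindlimb and to 7.44 and 7.17 in forelimb.

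Of the 3 matrilins, Matn1 passed the test and Matn3 and Matn4 did not. Matn1, a matrilin of cartilage (ENSMUSG00000040533, chromosome 4, 130944385 to 130955475, plus strand), had 137 and 120 CPM in hindlimb, against 251 and 365 CPM in forelimb. The hindlimb libraries stood close together and the forelimb libraries apart, with forelimb replicate 2 the highest. The means were 128 ± 11.6 CPM in hindlimb and 308 ± 80.7 CPM in forelimb (SD, n = 2 each). Matn1 fell in hindlimb by 1.26 ± 0.32 (SE) on the log2 scale, with an interval from −1.93 to −0.59 and an edgeR adjusted p of 0.0137. Forelimb replicate 2 bore on that call: without it the log2 fold change was −0.98 (adjusted p = 0.198). The tag-sequence offset brought it to −0.37 (adjusted p = 0.635), while a GC offset, a correction by the G and C content of a gene's tags, gave −1.41 (adjusted p = 0.00732), still past the threshold.

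Matn3, which assembles with Matn1 in the growth cartilage (ENSMUSG00000020583, chromosome 12, 8947929 to 8972028, plus strand), had 203 and 183 CPM in hindlimb, against 252 and 233 CPM in forelimb. The limb types did not overlap, but the log2 fold change of −0.33 ± 0.30 (SE) did not pass (edgeR adjusted p = 0.489). Matn4, the matrilin with the broadest tissue range of these 3 (ENSMUSG00000016995, chromosome 2, 164389393 to 164405160, minus strand), had 104 and 127 CPM in hindlimb, against 89.1 and 97.5 CPM in forelimb. Its log2 fold change was 0.31 ± 0.32 (SE) at an edgeR adjusted p of 0.538. The direction of both turned with the base composition correction used. The GC offset gave 0.61 for Matn3 and −0.81 for Matn4, and the tag-sequence offset gave −0.17 and −0.06. Counts of Matn1 were 0.673 and 0.656 of those of Matn3 in hindlimb, against 0.997 and 1.57 of them in forelimb.

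Comp encodes cartilage oligomeric matrix protein, an adaptor of the thrombospondin family in cartilage and tendon (ENSMUSG00000031849, chromosome 8, 70373558 to 70382066, plus strand). It had 53.4 and 79.9 CPM in hindlimb, against 104 and 108 CPM in forelimb. Both hindlimb libraries lay below both forelimb libraries. The log2 fold change was −0.67 ± 0.33 (SE), with an interval from −1.37 to 0.03 and an edgeR adjusted p of 0.171. It was nearly the same with the tag-sequence offset, −0.64 (adjusted p = 0.433). The GC offset gave −1.82 (adjusted p = 0.00231), past the threshold. Because tendon also expresses Comp, the tendon markers are given beside it: of 8 tested, of which Tnmd and Thbs4 also count below as relatives of the members, 1 was higher in hindlimb and 4 were higher in forelimb, and their summed level was 661 and 577 CPM in hindlimb and 1225 and 1345 CPM in forelimb. Under the offset edgeR called 0 of these 8, with 5 at an unadjusted p under 0.05. Without forelimb replicate 2, only Scx, a transcription factor of tendon, and Dcn, the proteoglycan decorin, were called. Scx was the marker higher in hindlimb, at 68.9 and 105 CPM, against 16.1 and 8.08 CPM in forelimb. Dcn went the other way, at 254 and 192 CPM in hindlimb, against 717 and 773 CPM in forelimb. The part of tendon in the Comp values was not tested.

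Cnmd encodes chondromodulin, a membrane protein of chondrocytes whose released part inhibits vessel growth (ENSMUSG00000022025, chromosome 14, 79637690 to 79662170, minus strand). It had 164 and 272 CPM in hindlimb, against 79.9 and 113 CPM in forelimb. Hindlimb replicate 2 was the highest, and no forelimb library reached the lower hindlimb library. The means were 218 ± 76.3 CPM in hindlimb and 96.5 ± 23.5 CPM in forelimb (SD, n = 2 each). Cnmd rose in hindlimb by 1.18 ± 0.34 (SE) on the log2 scale, with an interval from 0.46 to 1.91 and an edgeR adjusted p of 0.0263. The call ended without hindlimb replicate 2 (0.79), and also without either forelimb library, replicate 1 (0.95) or replicate 2 (1.44). The direction turned with the tag-sequence offset, to −0.29 (adjusted p = 0.791).

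Chad encodes chondroadherin, a leucine-rich repeat protein that binds collagen and cell-surface integrins (ENSMUSG00000039084, chromosome 11, 94565047 to 94569127, plus strand). It rested on 107 and 144 counts in hindlimb, against 45 and 18 counts in forelimb. In CPM this was 23.9 and 36.5 in hindlimb, against 11.5 and 11.2 in forelimb, with no overlap. The means were 30.2 ± 8.90 CPM in hindlimb and 11.4 ± 0.240 CPM in forelimb (SD, n = 2 each). Chad rose in hindlimb by 1.40 ± 0.44 (SE) on the log2 scale, with an interval from 0.49 to 2.32 and an edgeR adjusted p of 0.0356. The call ended without hindlimb replicate 2 (1.08), and also without either forelimb library, replicate 1 (1.43) or replicate 2 (1.38). With the tag-sequence offset the value was 0.42 (adjusted p = 0.794).

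**Figure D2:**
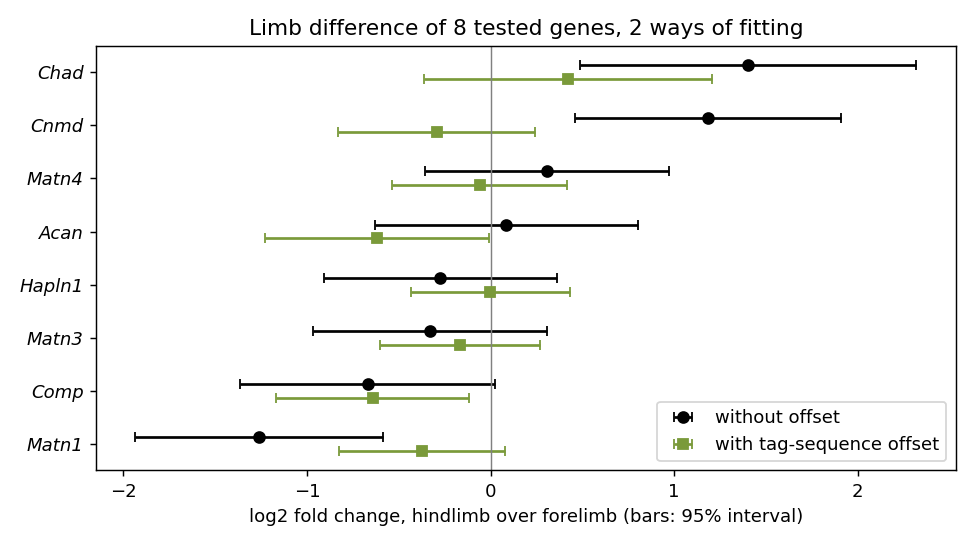
Log2 fold change, hindlimb over forelimb, of the 8 tested genes with 95% intervals, without an offset (black circles) and with the tag-sequence offset (green squares). Chad and Cnmd lie right of 0 and Matn1 left of 0 without the offset, while with it Chad and Matn1 move towards 0 and Cnmd lies at −0.29.

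The offset rests on the sequences of a gene's tags. On the log2 scale, the predicted difference between hindlimb and forelimb from tag sequence alone was 1.39 for Cnmd, 0.92 for Chad and −0.95 for Matn1. It was 0.67 for Acan and 0.28 for Matn4, against −0.34 for Hapln1, −0.23 for Matn3 and −0.14 for Comp. Over the 8 tested genes the median log2 fold change with the offset was −0.23, and 7 of them lay below 0. Of these 7, Hapln1 was at −1.2e-04, next to 0. Among all 13718 tested genes 6897 lay below 0 with the offset, with a median of −0.003.

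Ucma and Snorc were near the limit of detection. Ucma encodes a small Gla protein of growth plate cartilage (ENSMUSG00000026668, chromosome 2, 4976122 to 4985748, plus strand). It had 1 and 12 counts in hindlimb, against 4 and 2 counts in forelimb, too few to be tested. Snorc encodes a small transmembrane proteoglycan of chondrocytes (ENSMUSG00000026258, chromosome 1, 87470271 to 87475482, plus strand). It had 0 and 2 counts in hindlimb, against 0 and 0 counts in forelimb. The coding Snorc transcript in GENCODE M21, Snorc-201 of 478 bases, holds 0 CATG sites with a full tag after them, and the only Snorc tag in the table matched no sense strand position next to CATG. A level of Snorc can therefore not be read from these libraries. The Ucma transcripts hold 2 such sites.

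The order of genes by mean CPM is given with no correction for site number or tag sequence. Hapln1 was the highest and Chad the lowest of the tested genes in both limb types. In hindlimb Hapln1 was followed by Cnmd, Matn3, Matn1, Matn4, Comp and Acan. The ranges of Cnmd and Matn3 overlapped, as did those of Matn1 and Matn4, and of Comp and Acan. In forelimb Hapln1 was followed by Matn1, Matn3, Comp, Cnmd, Matn4 and Acan, where the ranges of Matn1 and Matn3, of Comp and Cnmd, and of Cnmd and Matn4 overlapped. Counts of Cnmd over those of Matn1 were 1.20 and 2.26 in hindlimb, against 0.318 and 0.310 in forelimb. That ratio sets a gene with a predicted tag-sequence effect of 1.39 over a gene with −0.95, and with the offset the log2 fold changes of Cnmd and Matn1 lay close together, at −0.29 and −0.37. Summed over the 10 genes, the level was 1164 and 1226 CPM in hindlimb and 1288 and 1463 CPM in forelimb.

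Below the level of genes, the members were counted through 92 different tags, of which 67 matched the sense strand of their gene next to a CATG. Among the matched tags 27 lay in a 3′ UTR and 39 in coding sequence. Of 39 tags that passed the filter, 21 had a log2 fold change above 0 and 18 below, and in 7 of the 8 tested genes, all but Chad, tags of the same gene lay on both sides of 0. The edgeR test per tag called 3 of the 39, where 6.43% of all tested tags were called, 1 higher in hindlimb (4.71% of all 36012 tested tags) and 2 higher in forelimb (1.71%), and 17 had an unadjusted p under 0.05. With the tag-sequence offset 0 of the 39 were called, with 3 at an unadjusted p under 0.05, where 0.025% of all tested tags were called. How many of all tested tags had an unadjusted p under 0.05 was not counted, with or without the offset.

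The 3 called tags came from Cnmd, Comp and Hapln1. They are printed here because the test per tag called them, each with abundant tags of the same gene that did not pass. Sequences run 5′ to 3′. Capitals mark CATG, the NlaIII site before the tag and any such site inside it.
Cnmd, most abundant tag: CATGtcCATGccaagagacca
Cnmd, tag at the last site: CATGccaagagaccacaaagt
Cnmd, tag at the third site: CATGgtgtaaatccagttcat
Comp, most abundant tag: CATGtggaaacagatggagca
Comp, tag at the last site: CATGcgtggtggccgcctggg
Hapln1, tag at the last site: CATGcattcttctgttgctag
Hapln1, called tag: CATGacaaaaaccatcaaatg
Hapln1, tag with an inner site: CATGctggtgtCATGgagtag

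The Cnmd tags lay in its last exon, exon 7, within 275 bases of the transcript's end. The most abundant (chr14:79637872-79637888, minus strand, 3′ UTR) followed the second site from the 3′ end. It contains the last site, so its end runs into the tag at the last site (chr14:79637866-79637882). It had 534 and 876 counts in hindlimb, against 173 and 49 counts in forelimb, and was higher in hindlimb by 2.16 ± 0.48 (SE) on the log2 scale (edgeR adjusted p over all tags = 0.0355). The call ended without hindlimb replicate 2 (1.70) or forelimb replicate 2 (1.84), and the value was 0.10 with the tag-sequence offset. The tag at the last site had 121 and 94 counts in hindlimb, against 39 and 13 counts in forelimb, with a log2 fold change of 1.46 (adjusted p = 0.0984). The tag at the third site, in coding sequence (chr14:79637951-79637967), lay on the other side of 0. It had 67 and 59 counts in hindlimb, against 97 and 116 counts in forelimb, although the forelimb libraries were the smaller ones, with a log2 fold change of −1.68 ± 0.56 (SE) at an adjusted p of 0.0921. The offset put the last-site tag at 0.043 and the third-site tag at −1.18.

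As shares of all Cnmd counts, the most abundant tag made up 72.8% (Wilson 95% interval 69.4% to 75.8%) and 81.6% (79.2% to 83.8%) in hindlimb, against 55.4% (49.9% to 60.9%) and 26.9% (21% to 33.8%) in forelimb. The third-site tag made up 9.13% and 5.50% in hindlimb, against 31.1% and 63.7% in forelimb. Forelimb replicate 2 stood apart from forelimb replicate 1 by more than counting error.

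In Comp, the leading tag differed between limb types. The most abundant tag lay in exon 16 (coding sequence, chr8:70380227-70380243, plus strand), at the second site from the 3′ end. It had 65 and 87 counts in hindlimb, against 314 and 139 counts in forelimb, and was lower in hindlimb, with a log2 fold change of −2.20 ± 0.45 (SE) at an edgeR adjusted p of 0.0296. The call was kept when any single library was left out, at −1.99 to −2.47, and ended with the tag-sequence offset (−0.93). The tag at the last site lay in exon 18 (coding sequence, chr8:70381736-70381752). It had 160 and 221 counts in hindlimb, against 73 and 17 counts in forelimb, with a log2 fold change of 1.59 ± 0.51 (SE) at an adjusted p of 0.0818. In hindlimb the last-site tag held 66.9% (60.8% to 72.6%) and 70.2% (64.9% to 74.9%) of Comp counts, against 18.0% (14.6% to 22.0%) and 9.77% (6.19% to 15.1%) in forelimb. By counts, the leading tag of the gene was thus the last-site tag in hindlimb and the second-site tag in forelimb. The last-site tag has 14 of 17 bases G or C, and with the tag-sequence offset it stood at −0.18 (adjusted p = 0.929), on the same side of 0 as the other tag.

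**Figure D3:**
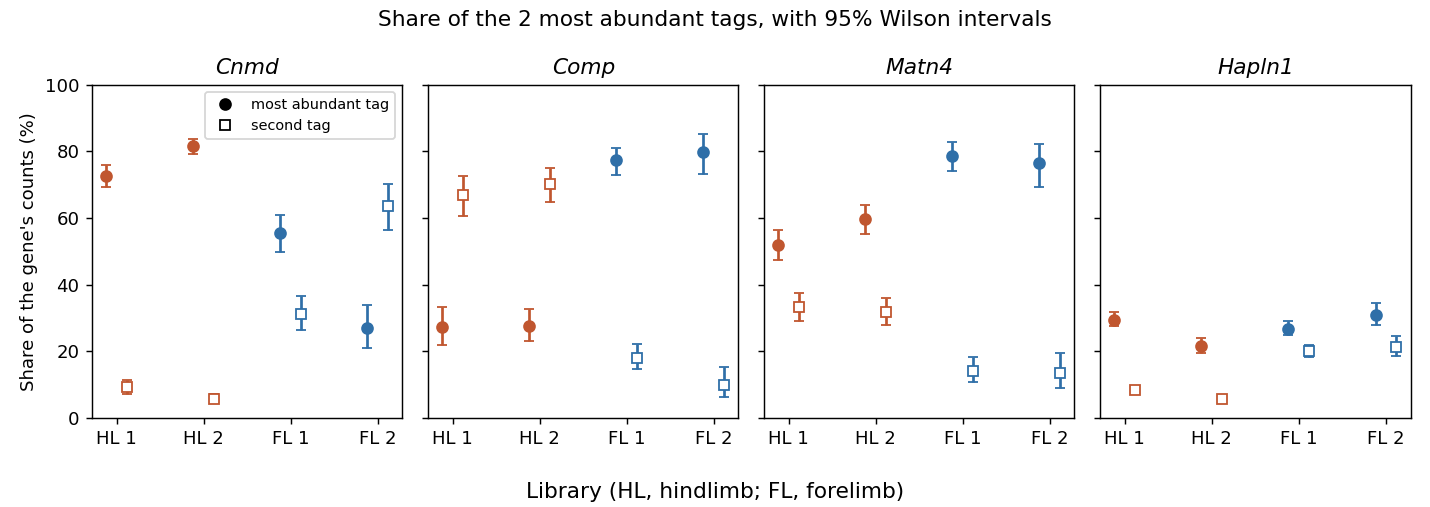
Share of each gene's counts taken by its most abundant tag (filled circles) and by the second tag (open squares) in each library, hindlimb in orange and forelimb in blue, with 95% Wilson intervals that cover counting error only. In Comp the leading tag differed between limb types, and in Cnmd forelimb replicate 2 was led by the second tag, at 63.7% of its counts.

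Such a change in the ratio of tags passed the test of differing tag usage (diffSpliceDGE in edgeR, Simes over the tags of a gene, Benjamini-Hochberg over 8351 genes) for Cnmd (adjusted p = 0.00899) and for Comp (adjusted p = 0.0192). It did not pass for Acan, Hapln1, Matn1, Matn3, Matn4 and Chad, at adjusted p from 0.232 to 0.568. That was 2 of 8 genes, where 10.8% of all genes were called. The calls ended without hindlimb replicate 2 (Cnmd 0.144, Comp 0.117), and also without either forelimb library, replicate 1 (0.135 and 0.282) or replicate 2 (0.386 and 0.380). After correction for tag sequence no member passed, and 0.25% of all genes did.

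Hapln1 was counted through 16 tags, more than 1 of them in its long 3′ UTR. The tag at the last site (chr13:89611511-89611527, plus strand) had 529 and 298 counts in hindlimb, against 460 and 233 counts in forelimb, with a log2 fold change of −0.45. The called tag (chr13:89609125-89609141), rich in A, had 147 and 77 counts in hindlimb, against 344 and 161 counts in forelimb, with a log2 fold change of −1.85 ± 0.45 (SE) at an edgeR adjusted p of 0.0443. That call ended without hindlimb replicate 2 (−1.46), and also without either forelimb library, replicate 1 (−1.92) or replicate 2 (−1.83). It was 0.024 under the tag-sequence offset. The tag with an inner site (chr13:89611011-89611027) went the other way, with 290 and 262 counts in hindlimb, against 103 and 45 counts in forelimb, at 1.26 (adjusted p = 0.0912), and stood at −0.018 with the offset. Over its 13 tested tags the log2 fold change ran from −2.93 to 2.13, around a gene value of −0.27.

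The matrilins and Chad were each led by few tags, printed here because nearly all counts of these genes rest on them.
Matn1, tag at the last site: CATGtgtgtttcagagcaagg
Matn1, tag at the second site: CATGtgtgtgcctgatggtga
Matn3, most abundant tag: CATGcaattggcaaaattaca
Matn3, second tag: CATGtacctaaaaataattta
Matn4, tag at the last site: CATGacgcacctgctggagaa
Matn4, tag at the second site: CATGtatgccgtgggcgtggg
Chad, tag at the last site: CATGctaccaggataccagta

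Both leading tags of Matn1, which together held 93.5% of its counts, lay below 0, without passing the test per tag. The tag at the last site (chr4:130955253-130955269, plus strand, 3′ UTR of exon 8) had 465 and 364 counts in hindlimb, against 811 and 462 counts in forelimb, with a log2 fold change of −1.34 ± 0.40 (SE) at an edgeR adjusted p over tags of 0.0694. The tag at the second site (chr4:130955231-130955247) had 96 and 60 counts in hindlimb, against 133 and 91 counts in forelimb, with a log2 fold change of −1.30. The last-site tag held 76.1% and 76.8% of Matn1 counts in hindlimb and 82.7% and 78.6% in forelimb.

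In Matn4 and in Matn3, the 2 leading tags lay on opposite sides of 0. The last-site tag of Matn4 (chr2:164392865-164392881, minus strand, coding sequence of exon 9) had 241 and 299 counts in hindlimb, against 274 and 120 counts in forelimb, at −0.17 on the log2 scale. Its second-site tag (chr2:164392967-164392983), with 12 of 17 bases G or C, had 154 and 160 counts in hindlimb, against 49 and 21 counts in forelimb, at 1.53 (edgeR adjusted p = 0.0729). The offset brought these Matn4 values to 0.088 and −0.038. The leading Matn3 tag (chr12:8971260-8971276, plus strand, 3′ UTR) had 548 and 600 counts in hindlimb, against 537 and 177 counts in forelimb, at 0.13. The second Matn3 tag (chr12:8971098-8971114), with 2 of 17 bases G or C, had 217 and 55 counts in hindlimb, against 298 and 147 counts in forelimb, at −1.43. Hindlimb replicate 2 was the lowest in this tag, with 7.61% of Matn3 counts, against 23.9% in hindlimb replicate 1 and 30.3% and 39.2% in forelimb. The last-site tag of Chad (chr11:94569037-94569053, plus strand, 3′ UTR of exon 4) held 86.0% and 81.9% of its counts in hindlimb and 93.3% and 94.4% in forelimb. The second Chad tag had 12 and 12 counts in hindlimb, against 0 and 1 counts in forelimb, at 3.52 (edgeR adjusted p = 0.215). Acan was spread over more tags, with 49.2% of counts in its 2 most abundant. Its leading tag stood at 0.07 and its second tag at −0.39.

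Across the 39 tested tags, the log2 fold change rose with the number of G and C. Of 12 tags with at most 6 G or C among 17 bases, 9 lay below 0, with a median log2 fold change of −1.18. Among all tested tags of that range 80.8% lay below 0, with a median of −0.94. Of 15 tags with 7 to 9 G or C, 7 lay below 0, with a median of 0.05, beside 53.3% and −0.11 for all tags. Of 12 tags with at least 10 G or C, 2 lay below 0, with a median of 0.86, beside 16.1% and 1.44. Spearman's rho between log2 fold change and GC was 0.57 over the 39 tags and 0.59 over 36012 tags, given as a description since tags share libraries and genes. After the offset it was 0.04 and 0.17. Such a fall is built in, since the offset was fitted with GC on these same libraries, tags of the members included. The called tags of Cnmd, Comp and Hapln1 had 9, 8 and 5 G or C.

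**Figure D4:**
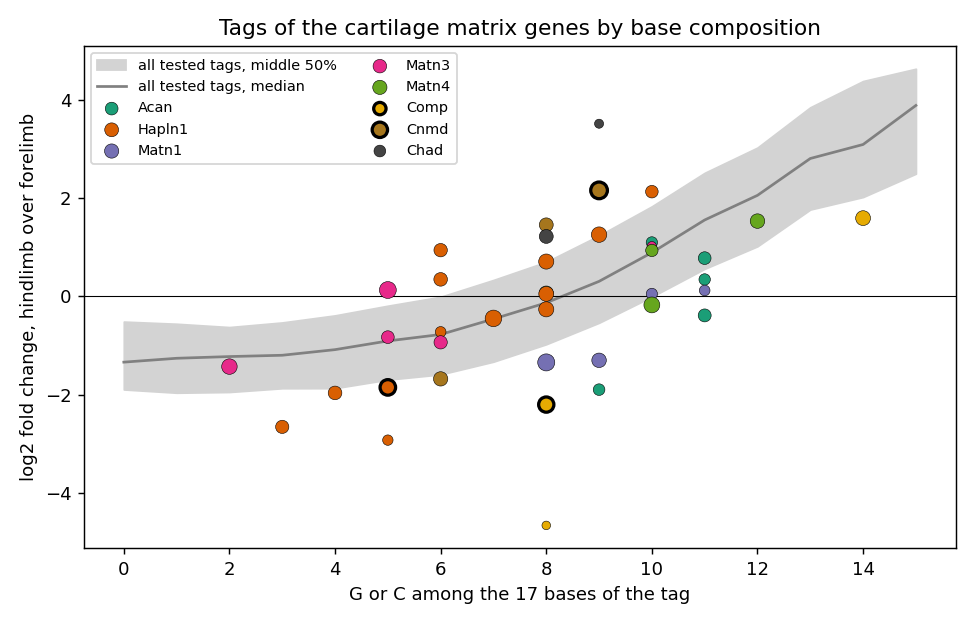
Log2 fold change, hindlimb over forelimb, of the 39 tested tags against the number of G or C among their 17 bases, coloured by gene, sized by count, with a heavy outline on the 3 called tags. The grey line and band give the median and middle 50% of all tested tags, which rise with GC. Among the tags of the cartilage genes, 10 of the 12 with at least 10 G or C lie above 0. The 3 called tags lie outside the band at their GC number, Cnmd above it and Comp and Hapln1 below it. Tags called for a large change are likely to lie there, so their position is no separate evidence.

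**Figure D5:**
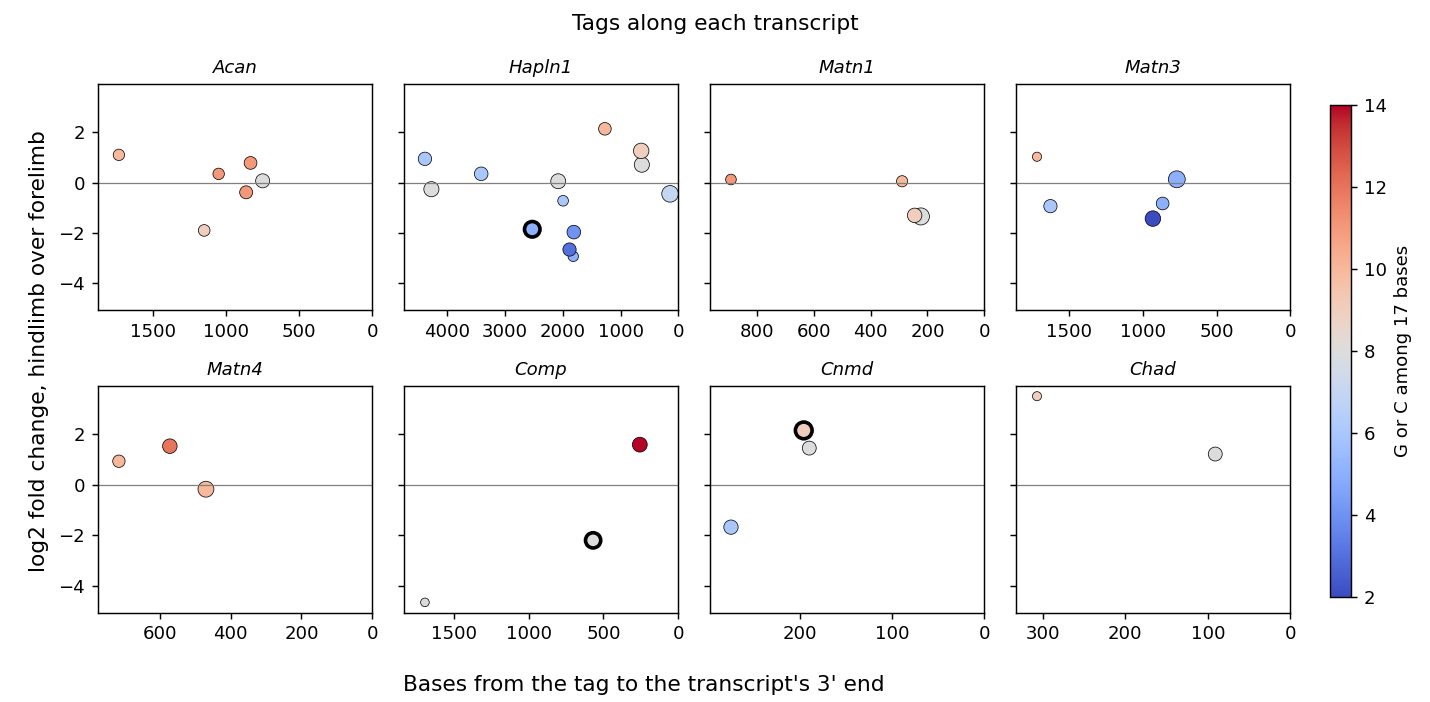
Log2 fold change of each tested tag against its distance in bases from the transcript's 3′ end, which is at the right, coloured by G or C number and sized by count, with a heavy outline on the 3 called tags. Tags near each other on a transcript can lie on opposite sides of 0, as in Cnmd, Comp and Hapln1.

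The genes around the members were counted in lists chosen by function. The shares to set beside each list are those of all tested genes, 16.7% called, 9.58% higher in hindlimb and 7.08% higher in forelimb. With the tag-sequence offset 1242 of all 13718 had an unadjusted p under 0.05 (edgeR). Cartilage collagens form the fibrils that the matrilins and Comp bind. Of 7 tested, 4 were called higher in hindlimb and 0 in forelimb, with a median log2 fold change of 1.10. The 3 that did not pass all had a log2 fold change below 0, so the list was split in direction. Col9a2 had 825 and 1291 CPM in hindlimb, against 292 and 336 CPM in forelimb (log2 fold change 1.75 ± 0.33, SE, edgeR adjusted p = 0.00293), and Col11a2 stood at 1.10 ± 0.32 (SE, adjusted p = 0.0261). With the tag-sequence offset the median of the collagens was 0.05, and edgeR called 0 of 7, with 1 at an unadjusted p under 0.05. Without forelimb replicate 2 only Col9a2 was called among the collagens. Summed, the collagens had 5829 and 7594 CPM in hindlimb and 5970 and 4647 CPM in forelimb. Whether collagens and the other matrix genes differ in their limb change was not tested.

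Of 7 tested chondrocyte transcription factors, edgeR called 0, with 0 at an unadjusted p under 0.05, and DESeq2 also called 0. Sox9, which drives the cartilage program and directly activates Acan, had 160 and 161 CPM in hindlimb, against 124 and 127 CPM in forelimb, a log2 fold change of 0.35 ± 0.31 (SE) at an adjusted p of 0.456. Wwp2, a ubiquitin ligase whose gene is a Sox9 target, stood at −0.13 ± 0.33 (SE, adjusted p = 0.819).

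Of 14 tested relatives of the members, 5 were higher in forelimb and 0 in hindlimb, with a median of −0.54. Matn2, a matrilin of many tissues, had 57.2 and 64.1 CPM in hindlimb, against 151 and 175 CPM in forelimb, a log2 fold change of −1.42 ± 0.32 (SE) at an edgeR adjusted p of 0.00702. Clec3a, a C-type lectin of cartilage, stood at −2.31, Epyc, a small leucine-rich proteoglycan of the growth plate, at −1.60, and Thbs2, a thrombospondin and so a relative of Comp, at −1.16, each past the threshold. Without forelimb replicate 2 only Clec3a of the 14 was called. The link proteins Hapln2 and Hapln4, known from the nervous system, had a count of 0 in every library. None of the 14 passed with the tag-sequence offset (edgeR, 5 at an unadjusted p under 0.05).

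Enzymes and transporters that build the sulfated chains of aggrecan were called in 3 of 22 tested genes, all higher in hindlimb, with a median of 0.13. Of all tested genes 16.7% were called, and 9.58% were higher in hindlimb. Papss1, which makes the activated sulfate, had 282 and 406 CPM in hindlimb, against 152 and 106 CPM in forelimb, a log2 fold change of 1.41 ± 0.33 (SE) at an edgeR adjusted p of 0.00904. Chpf, a chondroitin polymerizing factor, stood at 1.24, and B3gat3, which completes the linker of the chains, at 1.16. Without forelimb replicate 2 the count was 0 of 22, and Papss1 was the only one called without forelimb replicate 1 or without hindlimb replicate 2. Without hindlimb replicate 1 it was 3 in each direction. Chst13, a sulfotransferase, had a count of 0 in every library. The 16 genes for aggrecan cleavage and matrix receptors had a median of −0.36. Of these, 2 were higher in forelimb (7.08% of all tested genes) and 0 in hindlimb (9.58%). They were the proteases Adamts9 (−2.11 ± 0.41, SE, adjusted p = 0.00329) and Adamts5, an aggrecanase (−1.44 ± 0.35, SE, adjusted p = 0.0110). Adamts5 did not pass without forelimb replicate 2 (adjusted p = 0.0988). The list had 3 genes higher in hindlimb and 4 in forelimb when hindlimb replicate 1 was left out. With the tag-sequence offset edgeR called 0 genes of either list, with 0 at an unadjusted p under 0.05 among the 22 and 4 among the 16.

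Hypertrophic cartilage, the stage at which chondrocytes stop making much of this matrix, was read from 9 tested genes, of which 4 were higher in forelimb and 0 in hindlimb. Col10a1, the collagen of that stage, had 39.1 and 18.0 CPM in hindlimb, against 66.6 and 134 CPM in forelimb, a log2 fold change of −1.79 ± 0.42 (SE) at an edgeR adjusted p of 0.00910. Without forelimb replicate 2 it stood at −1.22 (adjusted p = 0.139), and 2 of the 9 genes were called, Ibsp and Spp1. Under the tag-sequence offset 1 of the 9 was called: Col10a1 then stood at −1.34 (adjusted p = 0.138), Ibsp, a sialoprotein of mineralizing matrix, at −0.53 against −1.92 without it, and Mef2c, a transcription factor of hypertrophy, at −0.32 against −0.99. Spp1, a matrix protein of bone and hypertrophic cartilage, stood at −1.56, passed with each library left out in turn, and was the gene that passed under the tag-sequence offset, at −1.46 (adjusted p = 0.0207).

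Some markers of other tissues of the limb were called too, most of them only without the tag-sequence offset. Of 10 skeletal muscle genes, 6 were higher in forelimb and 0 in hindlimb, and their summed level was 2429 and 2327 CPM in hindlimb and 7094 and 5785 CPM in forelimb, with Acta1 as the 1 gene past the threshold with the offset (−1.12, edgeR adjusted p = 0.0348). Of 8 epidermal genes, hindlimb was higher in 3 and forelimb in 2, with sums of 1656 and 2153 CPM in hindlimb and 1210 and 1296 CPM in forelimb. Of 6 tested erythroid genes, hindlimb was higher in 1 and forelimb in 2, with sums of 7388 and 8675 CPM in hindlimb and 12361 and 9836 CPM in forelimb. Hba-a1 and Hbb-bt were at 0, and values of their near-identical copies Hba-a2 and Hbb-bs are uncertain for that reason. Of 6 endothelial genes, hindlimb was higher in 2 and forelimb in 1, with sums of 169 and 180 CPM in hindlimb and 193 and 145 CPM in forelimb. Of 4 tested macrophage genes and 5 tested osteoblast genes, 1 each was higher in forelimb. Their sums were 51.9 and 31.7 CPM in hindlimb and 62.2 and 72.7 CPM in forelimb for macrophages, and 3480 and 3408 CPM in hindlimb and 3904 and 3951 CPM in forelimb for osteoblasts, with Bglap at 0. Under that offset edgeR called 0 of the epidermal, erythroid, endothelial, macrophage and osteoblast genes, with 1, 2, 0, 1 and 1 at an unadjusted p under 0.05. Of the 5 epidermal calls 1 was kept without forelimb replicate 2, and 2 were kept without forelimb replicate 1 or without hindlimb replicate 2. Without forelimb replicate 1, 1 of the 3 erythroid calls was kept, and the macrophage and osteoblast calls ended. The part of these tissues in the values of the cartilage genes was not tested.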

How the data were processed

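The authors deposited raw tag counts for 4 libraries, 2 of hindlimb and 2 of forelimb. The libraries were made from total RNA with the use of NlaIII, per the labels' protocols. The submitters' processing notes name Bowtie and the build mm9, with no version or setting. In all, the table held 733961 tags of 17 bases, 166502 with a gene or cluster. Tags with neither held 14.8% to 18.7% of a library's counts and stayed out of library sizes and tests. Counts were added up over the tags of an Ensembl gene or, failing that, of a UniGene cluster. Symbols (found for 17004 of 17677 genes), positions and tag matches are from GENCODE M21 on GRCm38, not mm9. Among tags that matched 1 M21 gene next to CATG and carried a deposited Ensembl gene, 98% of counts had the same gene. No tag of the 10 genes matched several genes.

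The limb types were compared with edgeR 4.0.16 in R 4.3.3 (TMM, filterByExpr, quasi-likelihood test, Benjamini-Hochberg adjustment at 0.05, no replicate block), per gene and per tag, with diffSpliceDGE for tag usage. Log2 fold changes are hindlimb over forelimb, with 2 residual degrees of freedom. To these the edgeR tests and intervals add degrees of freedom borrowed across all genes or tags. DESeq2 1.42.0 was an alternative. The tag-sequence offset fits base by position, the first dinucleotide, GC and purine number on 41681 tags with a mean of at least 5 counts, and fitted 47.1% of the variance within genes. Tags of the members were not left out of that fit. Tag usage with that correction was run on counts divided by the predicted factor. The GC offset is a lowess (span 0.3) on the GC of a gene's tags. The code of the gene and tag fits was run on simulated counts drawn with less spread than these data. That run does not measure the error rate of the calls above.

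Named were all 10 genes, the 2 most abundant tags of each tested gene and any called tag. Of each list up to 4 called genes (smallest p) were named or, with none called, the 2 most abundant. The third Cnmd and Hapln1 tags were chosen after their values were seen. The members, lists and offsets were chosen with earlier results of these data known. Replicates are biological per the labels. The pairs were not resamplings of a single library (chi-square per degree of freedom 20.0 in hindlimb and 8.73 in forelimb). The same replicate number is used in both limb types, but deviations of same-numbered libraries correlated at −0.11, so the numbers were not taken as pairs. The reads are PCR copies with no molecular identifier, and Wilson intervals and the limits that a count of 0 allows cover counting error only. Intervals of log2 fold changes come from the edgeR fit, which includes the spread between replicates.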

Additional observations from a re-analysis of the deposited data

Results flagged for a closer look

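Tags that carry no gene or cluster in the deposited table, and so enter no comparison above, matched the sense strand of members next to CATG. Over the 4 libraries they held 755 counts for Hapln1, 346 for Matn4, 213 for Cnmd, 87 for Acan, 35 for Matn1 and 15 for Matn3. Each of these 6 genes had more than 3 such counts, the limit that a count of 0 allows, in at least 1 library. Snorc had 3 and 0 such counts in hindlimb and 2 and 0 in forelimb, not above that limit in any library. The largest, in the 3′ UTR of Hapln1 (chr13:89609620-89609636, plus strand, GRCm38), is printed because it alone held more counts than the unassigned tags of any other member.
Hapln1, unassigned tag: CATGaacataacataaataaa
It had 122 and 50 counts in hindlimb, against 285 and 127 counts in forelimb, with 2 of its 17 bases G or C. When genes were instead counted from all tags that match 1 M21 gene, the same 3 members were called, at 1.09 for Cnmd, 1.43 for Chad and −1.23 for Matn1 on the log2 scale.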

How the results depend on the processing

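Against 2285 genes called with neither offset nor block, the tag-sequence offset gave 27, that offset with a replicate block 6 and the GC offset 810. Leaving out 1 library gave 950 (without forelimb replicate 2) to 3900 (without hindlimb replicate 1). Of the 10 members, 3 were called. None were called with the tag-sequence offset or with that offset and a replicate block (0 each). With tags at the last NlaIII site 1 was called, and Matn3 was not tested. In that setting a tag counts if its site is the last in any M21 transcript of the gene. It gave −0.81 for Comp, against 1.59 for the last-site tag of Comp printed above. The GC offset called 2, Matn1 (−1.41) and Comp, both higher in forelimb. Leaving out 1 library gave 0 to 3, namely 3 without hindlimb replicate 1, 1 without hindlimb replicate 2, 1 without forelimb replicate 1 and 0 without forelimb replicate 2. DESeq2 called 2, losing Chad (adjusted p = 0.0753). Of tags, 2314 were called, 808 with library totals alone, 621 with a replicate block and 9 with the tag-sequence offset, and 1761 to 9875 without 1 library. Called tags split 1697 higher in hindlimb to 617 higher in forelimb, against 713 to 95 with library totals, 545 to 76 with the block, and 3987 to 5888 without hindlimb replicate 1. Differing tag usage was called for 905 genes, 382 without a filter, 153 with a replicate block, 20 with the tag-sequence correction and 12 to 2189 without 1 library. With the block usage of Cnmd (adjusted p = 0.0853) and Comp (0.123) no longer passed, nor did Comp without a filter (0.110).

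The replicate block alone gave 2151 genes and the same 3 members. It ended the calls of all 3 called tags, at 2.12 for Cnmd, −2.23 for Comp and −1.90 for Hapln1. Pairing the numbers crosswise, added after the correlation had been seen, gave 3170 genes.

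Log2 fold changes changed sign as follows. Acan stood at −0.62 with the tag-sequence offset, −0.66 with that offset and the block, −0.58 with the GC offset, −0.045 at the last site, and −0.23 to 0.35 without 1 library (the lowest without hindlimb replicate 1). Matn4 stood at −0.058 with the tag-sequence offset and −0.059 with the block added, −0.81 with the GC offset, −0.30 at the last site and −0.25 with the most abundant tag. Matn3 stood at 0.61 with the GC offset and 0.068 with the most abundant tag. Cnmd stood at −0.29 with the tag-sequence offset and −0.31 with the block added. Among tags, the offset gave −0.46 for the first Acan tag, −0.18 for the second Comp tag, 0.024 for the second Hapln1 tag, and 0.088 and −0.038 for the first and second Matn4 tags. The first Acan tag ran from −0.48 (without hindlimb replicate 1) to 0.50 without 1 library and was −0.038 without forelimb replicate 1, and the first Matn3 tag ran from −0.10 (without forelimb replicate 2) to 0.32. Cnmd did not pass with the GC offset (0.93) or at the last site (1.36), nor Chad with the GC offset (1.27), at the last site (1.11) or with the most abundant tag (1.16). The called tags of Cnmd (2.11) and Hapln1 (−1.87) did not pass with library totals alone. The cause was not tested. With the GC offset and with the most abundant tag, Comp passed the threshold, at −1.82 and −2.28. Thinned to the smallest library, 2584 genes and the same 3 members were called. With 2 libraries per limb type, base composition and limb type cannot be told apart.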
